A study of Mus musculus with 6 samples.

Results

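This report describes 9 genes of the transforming growth factor beta (TGF-beta) pathway in mouse liver, 3 genes of ligands, 2 of receptors, 3 of inhibitors and 1 of an activator that is also a target. They are Tgfb1, Tgfb2, Tgfb3, Tgfbr1, Tgfbr2, Smad7, Ski, Skil and Thbs1. They were chosen by name as pathway genes, with earlier results of these data known. Each was read by 1 probe set with 1 gene symbol, and all 9 were found among the 22180 genes of the array. No gene of the 9 passed the test between ErbB4-/- and control liver. Skil and Tgfb1 were the 2 genes whose 3 ErbB4-/- arrays lay below the 3 control arrays. The gap between the groups was 0.40 for Skil and 0.03 for Tgfb1, and 3.81% of all genes were lower in this way. The receptor genes and the other ligand genes overlapped between the groups.

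The ErbB4-/- group had 3 mice that lack the receptor tyrosine kinase ErbB4 in the germline, kept alive by a transgene that supplies ErbB4 in the heart (ErbB4-/-HER4heart) and backcrossed to C57BL/6J. The control group had 3 wild type C57BL/6J mice. All 6 mice were given DEN, the usual abbreviation of diethylnitrosamine, which causes liver tumours in rodents, as 1 dose at postnatal day 14, so no untreated liver served as a baseline. The treatment characteristic puts dissection at 35, 36 and 37 weeks for ErbB4-/- replicates 1 to 3 and at 32, 33 and 34 weeks for control replicates 1 to 3, whereas the protocol field has 32 weeks for every mouse. Whole liver RNA of each mouse was put on 1 single-colour array, and the labels do not say whether tumour or surrounding tissue was taken. Values are log2 signals per probe set, so they compare arrays for 1 gene and not genes with each other. The missing receptor and the heart transgene cannot be told apart in this design, nor can other features of the line. If the weeks differ as the characteristic says, genotype and age are separated through the weeks within a group alone.

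The targeted gene Erbb4 measured 4.75, 5.36 and 5.61 in ErbB4-/- liver and 5.42, 5.73 and 5.42 in control liver, with groups that overlapped. Which part of the gene its probe set reads was not examined, so the labels cannot be checked by it. Hepatocyte markers were high on all arrays, with Alb, the albumin gene, between 14.31 and 14.33 in ErbB4-/- and between 14.33 and 14.37 in control liver. Control replicate 1 stood apart in male-type liver genes, with the steroid dehydrogenase gene Hsd3b5 at 2.52 there and between 8.70 and 9.88 on the other 5 arrays. Y-linked Eif2s3y was nevertheless between 8.77 and 9.08 on all 6 arrays, and Xist, the RNA of the inactive X chromosome, between 3.32 and 3.60. ErbB4-/- replicate 3 stood farthest out on the first principal component, which held 36.1% of the variance, at 33.35 against -21.46 to 5.44 for the other arrays. Results are therefore given with and without control replicate 1 and ErbB4-/- replicate 3 where they rest on them. This was done for the 9 genes and for the genes that TGF-beta induces.

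TGF-beta ligands are secreted in a latent form, bound to their own propeptide, and must be released before they can act. The free ligand binds the type II receptor TGFBR2, which activates the type I receptor TGFBR1, and TGFBR1 passes the signal to SMAD proteins that enter the nucleus. The pathway restrains itself through SMAD7, which blocks the receptors, and through SKI and SKIL (SnoN), which bind SMADs on DNA and hold their targets silent. In liver the pathway is known for driving stellate cells to lay down matrix and for restraining hepatocyte growth.

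The start regions of Tgfb1 and Tgfb2 are shown because Tgfb1 had a lower mean in ErbB4-/- liver and Tgfb2 had near equal means. Neither difference passed, the 2 were not compared by a test, and a link to these regions was not tested. The RefSeq promoter table (build GRCm38.p6) held 5 of the 9 genes. It has no entry for Tgfb3, Smad7, Skil or Thbs1. Each sequence is the 250 bases before the annotated start of the gene, written 5′ to 3′ on the strand of the gene. Capitals mark 4 motifs searched on both strands, the SMAD box CAGAC, the AP-1 site TGANTCA, the GC box GGGCGG and the TATA box TATAAA, and no match of 1 motif overlapped another.
Tgfb1, chr7:25686752-25687001, plus strand: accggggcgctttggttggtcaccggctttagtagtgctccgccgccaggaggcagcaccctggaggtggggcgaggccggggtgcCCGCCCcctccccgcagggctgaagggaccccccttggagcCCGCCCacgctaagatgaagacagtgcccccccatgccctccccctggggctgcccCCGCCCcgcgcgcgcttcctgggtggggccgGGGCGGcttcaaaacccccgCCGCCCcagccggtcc
Tgfb2, chr1:186705990-186706239, minus strand: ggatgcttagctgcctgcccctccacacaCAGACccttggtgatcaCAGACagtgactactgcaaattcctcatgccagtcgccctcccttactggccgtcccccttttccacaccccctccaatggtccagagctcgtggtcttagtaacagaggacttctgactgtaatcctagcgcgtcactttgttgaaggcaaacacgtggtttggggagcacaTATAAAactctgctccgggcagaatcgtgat
The Tgfb1 window held 5 GC boxes and had a GC content of 75.2%, against a median of 52.4% over the 32851 windows of the table. The Tgfb2 window held 2 SMAD boxes and 1 TATA box, with the TATA box beginning 31 bases before the start, and had a GC content of 53.6%. A GC box was found in 32.7% of all windows, a SMAD box in 42.2%, a TATA box in 12.4% and an AP-1 site in 6.75%. Among the receptor and inhibitor genes, the Tgfbr2 window held 1 SMAD box, the Ski window held 5 GC boxes, and Tgfbr1 had 2 annotated starts, one with 2 GC boxes and one with 1 SMAD box. No AP-1 site lay in any of these 6 windows. Such matches describe letters and do not show binding.

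Comparing ErbB4-/- with control liver asks whether the genes of this pathway are expressed differently when the receptor is missing in a carcinogen-treated liver. Of the 9 genes, 0 passed (limma, adjusted p between 0.760 and 0.971 over 22180 genes), where 1 gene or 0.00451% of all genes passed. Skil and Tgfb1 were the 2 genes with an unadjusted p under 0.05, both lower, against 2.94% of all genes lower at that level. The same 2 genes were lower without overlap of the groups, and 0 were higher without overlap, where 3.81% of all genes were lower and 4.52% higher in that way. Differences were below 0 for 6 of the 9 genes, against 44.8% of all genes, and their median was -0.20 against 0.01 over all genes.

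**Figure D1:**
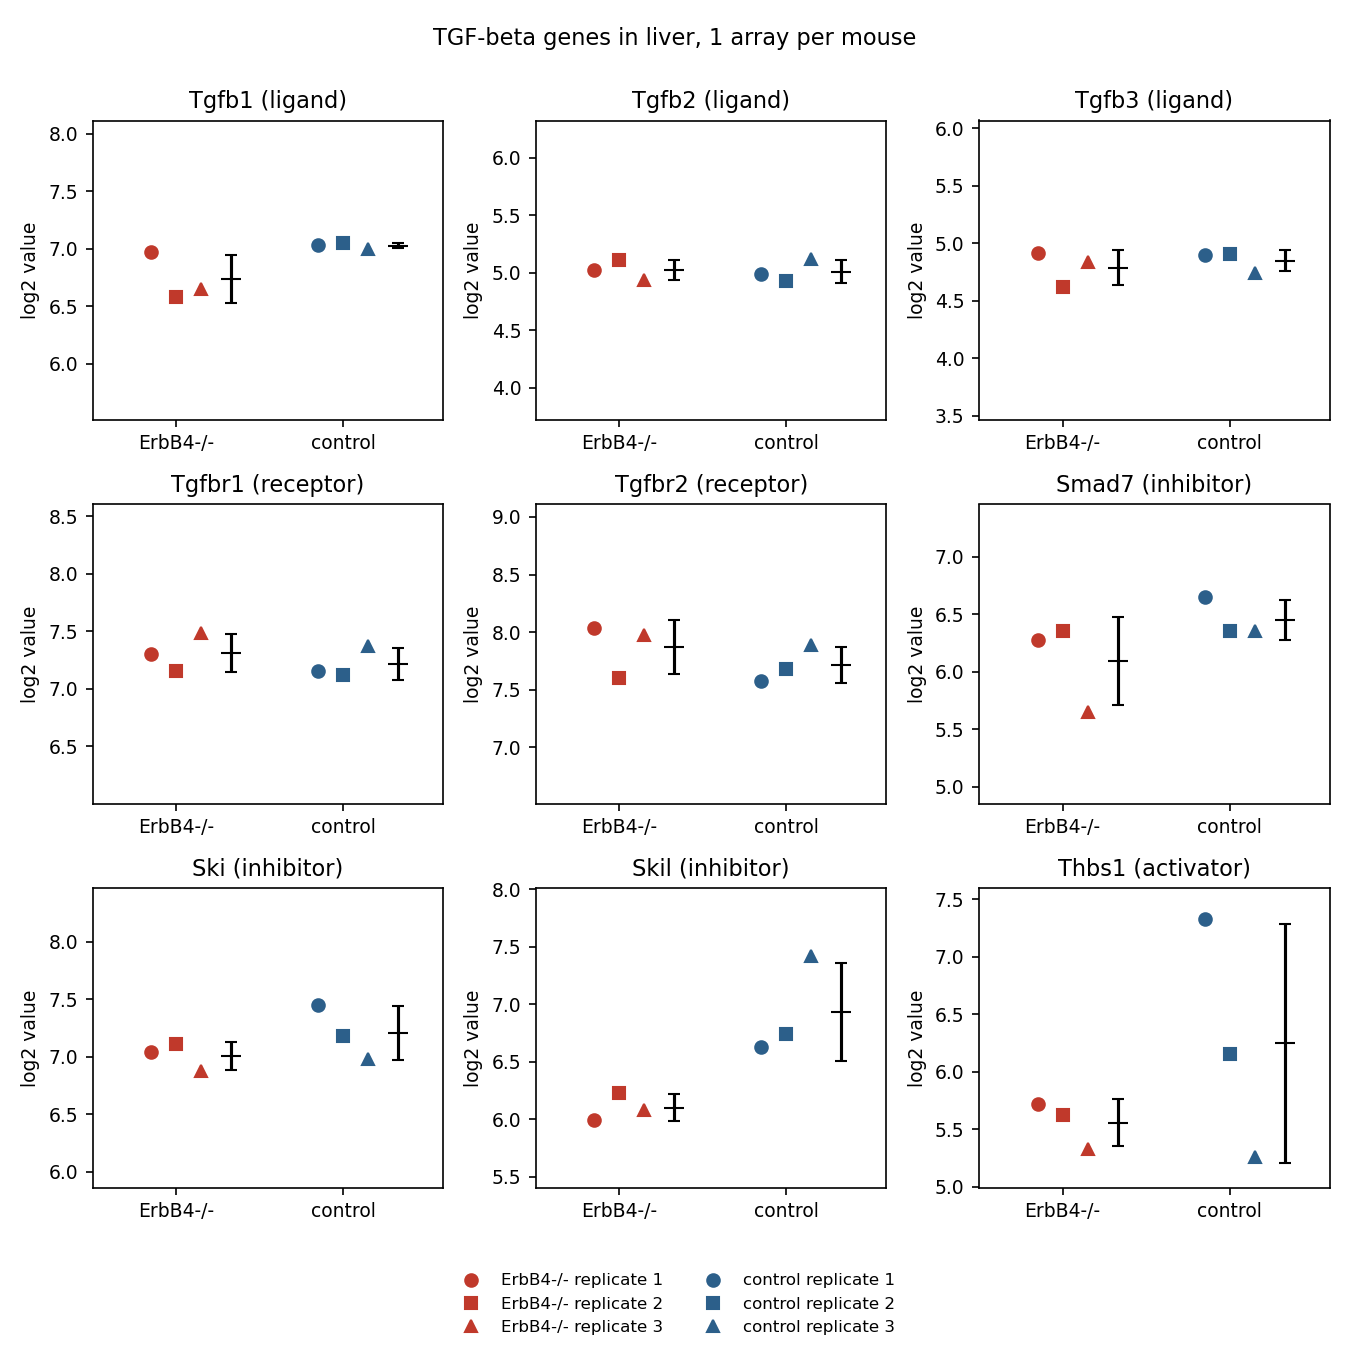
Log2 values of the 9 genes, 1 point per mouse (ErbB4-/- left in red, control right in blue, marker shape by replicate number), with the mean and SD of each group (n = 3). Every panel spans 2.6 log2 units. Skil and Tgfb1 show no overlap between the groups, and in Thbs1 control replicate 1, at 7.33, stands above the other 5 arrays, which lie between 5.26 and 6.15.

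Among the ligand genes, Tgfb1, which encodes the main TGF-beta of immune and endothelial cells, measured 6.97, 6.58 and 6.65 in ErbB4-/- replicates 1 to 3 and 7.03, 7.05 and 7.00 in control replicates 1 to 3. The 3 control arrays lay close together, and ErbB4-/- replicate 1 was 0.03 below the lowest of them, so the absence of overlap is narrow. The means were 6.74 ± 0.21 in ErbB4-/- and 7.03 ± 0.02 in control liver (SD, n = 3 each), a difference of -0.29 (SE 0.11) and a 95% confidence interval from -0.57 to -0.015 (limma, adjusted p = 0.760). Without ErbB4-/- replicate 3 the difference was -0.25, without control replicate 1 it was -0.29, and without both it was -0.25.

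Tgfb2, the isoform whose release depends less on integrins, measured 5.02, 5.11 and 4.93 in ErbB4-/- liver and 4.99, 4.93 and 5.12 in control liver. The groups covered the same range, with a difference of 0.01 and an interval from -0.18 to 0.20 (limma, adjusted p = 0.971). Tgfb3, the third ligand gene, measured 4.92, 4.62 and 4.83 in ErbB4-/- liver and 4.89, 4.91 and 4.74 in control liver, a difference of -0.06 with an interval from -0.30 to 0.18 (limma, adjusted p = 0.861). ErbB4-/- replicate 1 was highest and ErbB4-/- replicate 2 lowest for Tgfb3, so both ends of its range lay in 1 group. Tgfb2 and Tgfb3 lay below the median level of all genes, 5.27, and a low value on these arrays can be background.

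The receptor genes had the 2 largest positive differences among the 9. Tgfbr2, the gene of the receptor that binds ligand first, measured 8.04, 7.60 and 7.97 in ErbB4-/- liver and 7.58, 7.68 and 7.88 in control liver. ErbB4-/- replicates 1 and 3 were above every control array and ErbB4-/- replicate 2 was within their range. The means were 7.87 ± 0.23 in ErbB4-/- and 7.71 ± 0.16 in control liver, a difference of 0.16 with an interval from -0.20 to 0.51 (limma, adjusted p = 0.777). Leaving out 1 array moved it between 0.07 without ErbB4-/- replicate 1 and 0.29 without ErbB4-/- replicate 2.

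Tgfbr1, the kinase that phosphorylates SMADs, measured 7.30, 7.15 and 7.49 in ErbB4-/- liver and 7.16, 7.12 and 7.37 in control liver. Replicate 3 was the highest array in each group, and the groups overlapped. The difference was 0.10 (SE 0.11) and had an interval from -0.18 to 0.38 (limma, adjusted p = 0.808), and it was 0.01 without ErbB4-/- replicate 3. Tgfb1 had a lower mean and its 2 signalling receptor genes had higher means in ErbB4-/- liver, though none of these 3 differences passed.

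All 3 inhibitor genes had lower means in ErbB4-/- liver. Skil, the gene of SnoN, which TGF-beta signalling is known to induce as a brake on itself, measured 5.99, 6.23 and 6.08 in ErbB4-/- replicates 1 to 3 and 6.63, 6.74 and 7.42 in control replicates 1 to 3. The highest ErbB4-/- array was 0.40 below the lowest control array, and control replicate 3 stood above the other 2 control arrays. The means were 6.10 ± 0.12 in ErbB4-/- and 6.93 ± 0.43 in control liver, which makes ErbB4-/- liver 1.78-fold lower, a log2 difference of -0.83 (SE 0.22) and an interval from -1.37 to -0.28 (limma, adjusted p = 0.760, unadjusted p = 0.0103). This was the largest difference among the 9 genes. It was -0.59 without control replicate 3 and -0.98 without control replicate 1, and -0.97 when control replicate 1 was left out together with ErbB4-/- replicate 3, so the arrays that stood apart did not carry it.

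Ski, the founding member of the same corepressor family, measured 7.05, 7.11 and 6.87 in ErbB4-/- liver and 7.45, 7.18 and 6.98 in control liver. Control replicate 1 was highest, and control replicate 3 lay inside the ErbB4-/- range. The difference was -0.20 with an interval from -0.53 to 0.14 (limma, adjusted p = 0.760). It was -0.07 without control replicate 1 and -0.31 without control replicate 3. Once the arrays that stood apart were both dropped, the Ski difference shrank to -0.005, so almost none of it remained.

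Smad7, the inhibitory SMAD that sends the receptors to degradation, measured 6.27, 6.35 and 5.65 in ErbB4-/- liver and 6.65, 6.35 and 6.35 in control liver. The value of 6.35 stood on 3 arrays to the last digit, 1 of ErbB4-/- and 2 of control liver, and such repeated values occur in 57.5% of all genes of the deposited table. ErbB4-/- replicate 3 was low and control replicate 1 high, and the remaining arrays lay within 0.08 of each other. The difference was -0.36 with an interval from -0.88 to 0.16 (limma, adjusted p = 0.760). It was -0.14 without ErbB4-/- replicate 3 and -0.04 without both that array and control replicate 1.

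Thbs1 encodes thrombospondin 1, a matricellular protein of platelets, macrophages and stromal cells that can release active TGF-beta from its latent complex and that TGF-beta induces. It measured 5.72, 5.63 and 5.33 in ErbB4-/- liver and 7.33, 6.15 and 5.26 in control liver. The control arrays spread over 2.07 log2 units and enclosed the ErbB4-/- arrays. The means were 5.56 ± 0.20 in ErbB4-/- and 6.25 ± 1.04 in control liver, a difference of -0.69 with an interval from -1.98 to 0.60 (limma, adjusted p = 0.761). Control replicate 1 carried most of it, since the difference was -0.15 without that array, -0.03 without both that array and ErbB4-/- replicate 3, and -1.19 without control replicate 3. The other thrombospondin genes Thbs2, Thbs3, Thbs4 and Comp had differences between -0.09 and 0.15, and 0 of 4 passed.

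**Figure D2:**
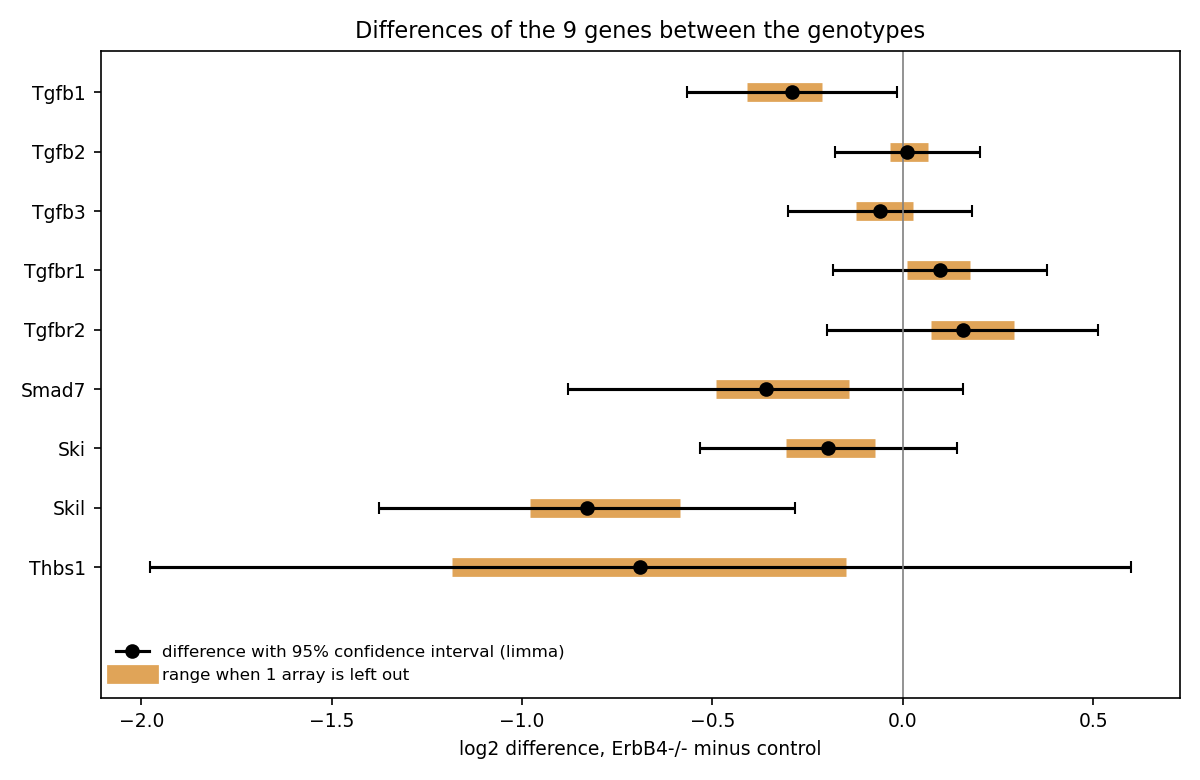
Log2 difference of each of the 9 genes, ErbB4-/- minus control, with its 95% confidence interval (black) and the range of the difference when 1 array is left out (orange). Tgfb1 and Skil are the 2 genes whose interval lies below 0 before adjustment over all genes, and the interval of Thbs1, from -1.98 to 0.60, is the widest.

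The 9 genes did not follow 1 array together. Control replicate 1 was the highest array for 3 of them, Ski, Smad7 and Thbs1, and the highest for 19.2% of all genes. ErbB4-/- replicate 3 was the lowest array for 2 of them, Smad7 and Ski, and the lowest for 20.0% of all genes. The differences of these 3 genes shrank without those arrays. Skil was highest in control replicate 3 instead, and Tgfb1 was nearly level across the controls. Leaving out both arrays kept Tgfb1 and Skil as the 2 genes without overlap, while 12.0% of all genes were lower without overlap in these smaller groups.

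Other genes of the pathway were taken from lists by role. Of 113 measured genes 0 passed, 36 had higher and 77 lower means in ErbB4-/- liver, and the median difference was -0.07, where 44.8% of all genes had lower means. With an unadjusted p under 0.05, 3 were higher and 7 lower, against 2.77% and 2.94% of all genes, and without overlap 4 were higher and 7 lower, against 4.52% and 3.81% of all genes. All values for single genes below are differences on the log2 scale, ErbB4-/- minus control, none of which passed (limma, adjusted p of at least 0.549).

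Genes of latency and activation had lower means in 16 of 21 cases, with a median difference of -0.06. The 4 with the smallest p were Dcn, encoding decorin, a proteoglycan that binds TGF-beta, at 10.62 ± 0.38 in ErbB4-/- and 11.37 ± 0.17 in control liver, the integrin gene Itgb3 at -0.61, the gelatinase gene Mmp9 at -0.97, and Bgn, encoding the related proteoglycan biglycan, at -0.59. Only Dcn and Itgb3 among these 4 had groups without overlap. Among co-receptors and receptor regulators the median was -0.02, with 6 of 15 higher. Cav1, encoding caveolin, a membrane protein of the receptor's internalisation route, had values of 6.07, 5.96 and 6.22 in ErbB4-/- liver, all above the control values of 5.38, 5.72 and 5.89. Eng, the endothelial co-receptor endoglin, measured 9.29, 8.64 and 7.82 in ErbB4-/- liver and 9.03, 9.57 and 9.63 in control liver, so that ErbB4-/- replicate 1 lay inside the control range. The adaptor gene Strap differed by -0.14 and Acvrl1, an endothelial type I receptor, by -0.14.

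SMADs and their nuclear cofactors were split evenly, with 7 of 15 higher and 8 lower. Ldlrad4, a membrane protein that holds back SMAD phosphorylation, measured 7.31, 6.98 and 7.17 in ErbB4-/- liver, above the 6.82, 6.59 and 6.85 of control liver. Smad6, the inhibitory SMAD of the BMP arm and relative of Smad7, measured 5.29, 5.45 and 5.38 in ErbB4-/- liver and 5.66, 5.50 and 5.46 in control liver, with groups that just missed each other. Smad3, a carrier of the TGF-beta signal, differed by 0.25 and overlapped. Pmepa1, a feedback inhibitor that TGF-beta induces, differed by -0.25, with ErbB4-/- replicate 3 at 5.09 and the other 5 arrays between 5.61 and 5.79.

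Genes that TGF-beta is known to induce had lower means in 21 of 26 cases, with a median difference of -0.16. Of these 26, 4 were lower without overlap, Postn, Ccn2, Tgfbi and Junb, and 0 were higher without overlap, against 3.81% and 4.52% of all genes. Postn, the matrix protein periostin, measured 6.28, 6.41 and 6.39 in ErbB4-/- liver and 7.32, 7.46 and 7.12 in control liver, a difference of -0.94 (SE 0.10 in limma, adjusted p = 0.549). Ccn2, the connective tissue growth factor gene, measured 6.79, 6.71 and 6.35 in ErbB4-/- liver and 7.26, 6.97 and 7.03 in control liver. Tgfbi, a secreted matrix protein named for its induction by TGF-beta, differed by -0.46, and the oxidase gene Nox4 by 0.28. Among fibrillar collagen genes the differences were -0.28 for Col1a1, -0.07 for Col1a2 and -0.08 for Col3a1, and Acta2, the smooth muscle actin of activated stellate cells, differed by 0.10, all with groups that overlapped. The direction of this list rested in part on the 2 arrays that stood apart. Without control replicate 1, 16 of 26 genes were lower and the median was -0.07, without ErbB4-/- replicate 3, 20 were lower and the median was -0.10, and without both, 16 were lower and the median was -0.03.

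In the BMP and activin arm, whose BMP ligands signal through other SMADs than TGF-beta and whose activins share its SMADs, 22 of 32 genes had lower means, with a median of -0.09. Acvr2a, an activin receptor gene, was higher without overlap, at 8.18, 8.18 and 8.33 in ErbB4-/- and 7.92, 8.01 and 8.14 in control liver. Acvr2b, another activin receptor gene, was also higher without overlap, at 5.82, 5.81 and 6.59 in ErbB4-/- and 5.70, 5.77 and 5.78 in control liver. Bmp2, a ligand made by liver endothelium that sets hepcidin, differed by -0.60, Id2, a transcriptional regulator induced by BMPs, by -0.28 and Smad1, a carrier of the BMP signal, by -0.12. All 3 overlapped between the groups.

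**Figure D3:**
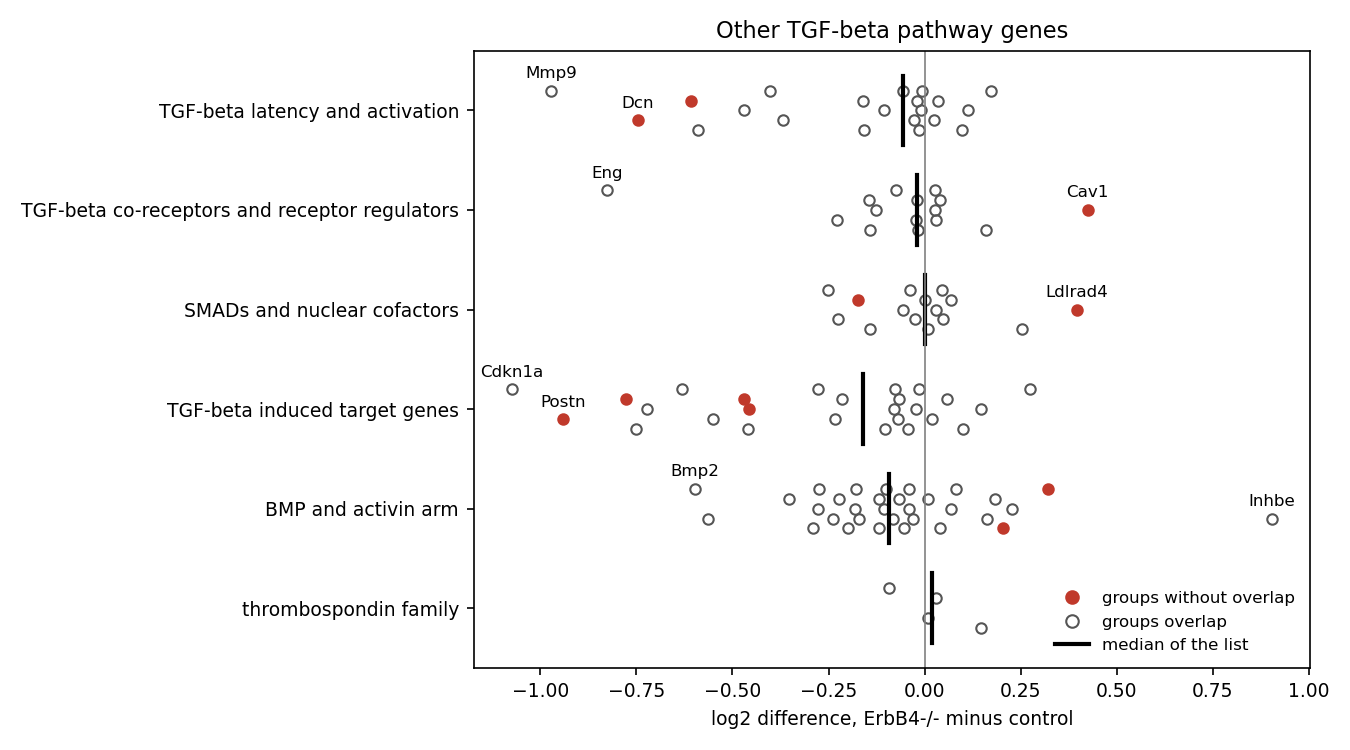
Log2 difference, ErbB4-/- minus control, of each measured gene of 6 pathway lists, with filled red points for genes whose groups do not overlap, open points for those that overlap and a black bar at the median of each list. The list of induced target genes has the lowest median, -0.16, and that of SMADs and cofactors lies at 0.

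Several of these genes are expressed by particular liver cells, and the means of several marker lists of those cells were lower in ErbB4-/- liver as well. Over 14 stellate cell and fibroblast markers, all 14 had lower means in ErbB4-/- liver, against 44.8% of all genes. The mean of this list lay between 7.075 and 7.564 on ErbB4-/- arrays and between 7.560 and 7.676 on control arrays. The groups therefore overlapped. Endothelial markers were lower in 14 of 16 cases, with list means between 6.85 and 7.84 on ErbB4-/- and between 7.82 and 8.17 on control arrays. Kupffer cell and macrophage markers were lower in 14 of 14, between 7.52 and 8.29 on ErbB4-/- and between 8.64 and 8.91 on control arrays. Neutrophil markers were lower in 11 of 11, with list means between 4.96 and 5.36 on ErbB4-/- and between 5.58 and 7.73 on control arrays. ErbB4-/- replicate 3 had the lowest mean of the stellate cell, endothelial and Kupffer cell lists. The counts were not repeated without that array.

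Hepatocyte markers were nearly level, between 13.42 and 13.53 on ErbB4-/- and between 13.46 and 13.56 on control arrays. Of these 10 markers, 7 had lower means in ErbB4-/- liver. They were among the highest signals of all genes, from percentile 99.2 for G6pc to 100 for Alb. Whether the arrays can show a difference at such levels was not tested. Platelet markers, of interest for Thbs1 and Tgfb1, lay between 4.97 and 5.16 on ErbB4-/- and between 5.10 and 5.27 on control arrays, with 5 of 8 lower. Markers of T and NK cells were lower in 8 of 10 cases, those of B and plasma cells in 5 of 7 and those of cholangiocytes in 3 of 7. None of these markers passed (limma, adjusted p of at least 0.760), and on a log2 array scale none can be read as absent. Dcn, Col1a1, Col1a2, Col3a1, Eng and Itgb3 stand on both a pathway and a marker list. In whole tissue, fewer cells of a type and less RNA per cell cannot be told apart, and the part of these cells in the values of Tgfb1, Skil and the other genes was not tested.

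Skil, Smad7 and Thbs1 are also genes that cells switch on quickly after a stimulus, so immediate early genes were set beside them. The mean of 22 immediate early genes was 7.88, 7.66 and 6.39 on ErbB4-/- replicates 1 to 3. It was 8.66, 8.11 and 8.02 on control replicates 1 to 3. Of the 22 genes, 20 had lower means in ErbB4-/- liver, against 44.8% of all genes. ErbB4-/- replicate 3 was lowest and control replicate 1 highest for the list, the same arrays that were lowest and highest for Smad7. Thbs1 was also highest in control replicate 1, at 7.33, but lowest in control replicate 3, at 5.26. Within each group the arrays of Thbs1 had the same order as those of the list. Skil was not lowest in ErbB4-/- replicate 3 and not highest in control replicate 1. Both Skil and the list mean were nevertheless lower on every ErbB4-/- array than on any control array. Junb stands on both this list and that of the genes TGF-beta induces. Whether immediate early genes share in the values of Skil, Smad7 and Thbs1 was not tested.

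**Figure D4:**
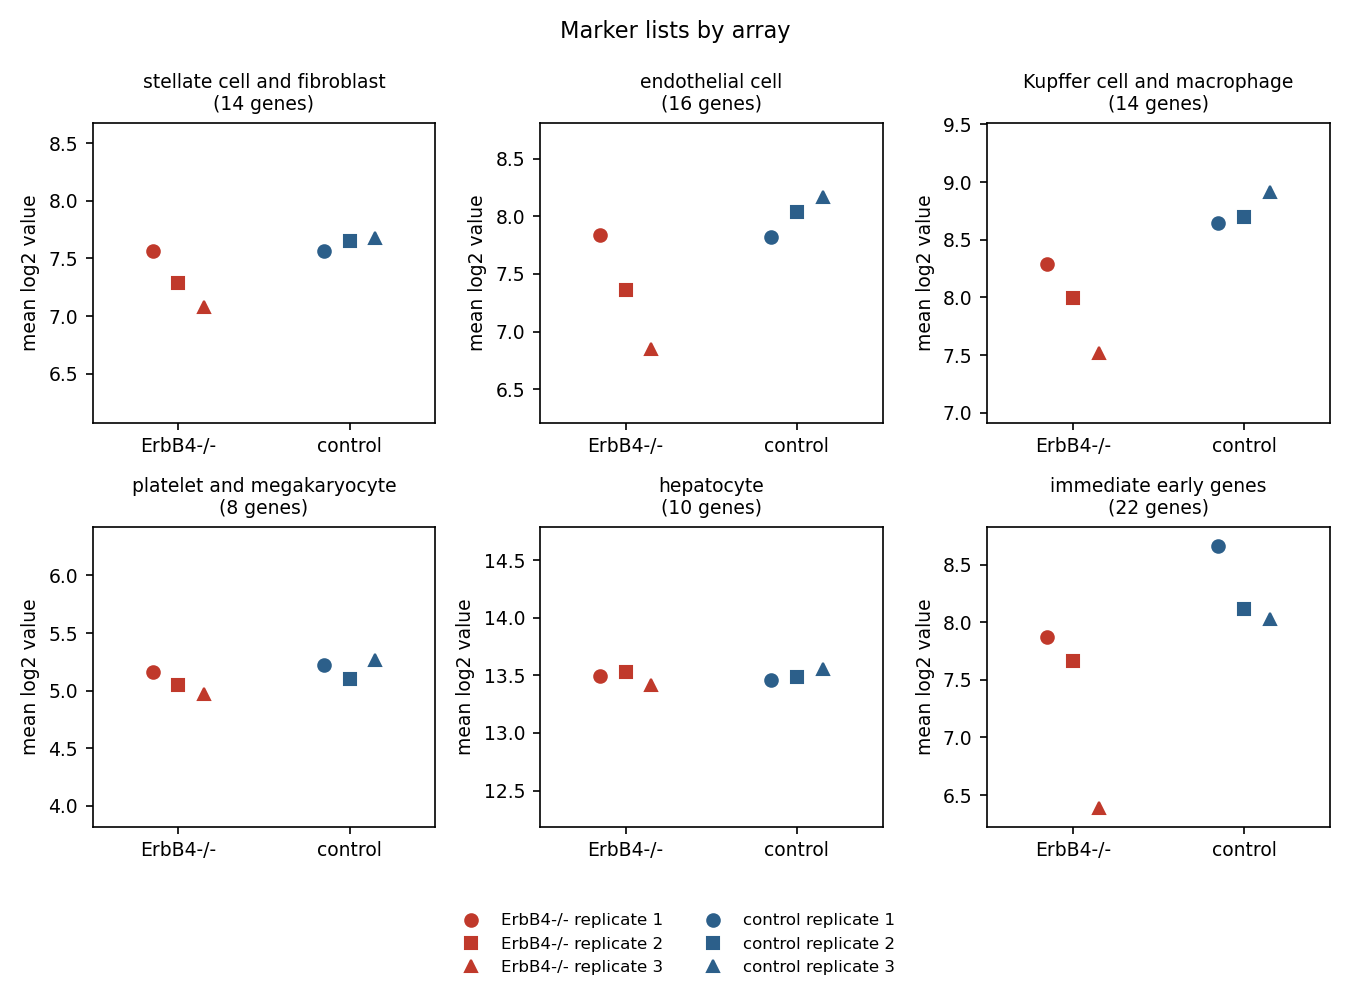
Mean log2 value of 5 marker lists and of the immediate early genes on each array (ErbB4-/- left in red, control right in blue, marker shape by replicate number), each panel spanning 2.6 log2 units. Kupffer cell markers and immediate early genes lie lower on all 3 ErbB4-/- arrays, hepatocyte markers stay within 13.42 to 13.56, and ErbB4-/- replicate 3 is lowest in each panel.

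For the 3 genes with the smallest p, the genes with the most similar profile were sought among 1334 genes at or above the median level with an SD over arrays of at least 0.3. The measure was the Pearson correlation over the 6 arrays, and the highest of so many values over 6 arrays is high by selection. Skil was most like Smarca5, the ATPase of a chromatin remodeller (0.991), Gpr65, a proton-sensing receptor of leukocytes (0.975), and Ighv1-53, an immunoglobulin heavy chain segment (0.967). Tgfb1 was most like Mmrn2, an endothelial matrix protein (0.968), the membrane protein gene Emp3 (0.956) and Abcc9, a subunit of a potassium channel (0.956). Smad7 was most like the chemokine gene Ccl7 (0.987), the semaphorin gene Sema6d (0.985) and the ephrin gene Efna1 (0.985). Each of these similar genes had a lower mean in ErbB4-/- liver, with differences between -0.92 and -0.40, and none passed (limma, adjusted p = 0.760 each). They were picked for profiles like those of Skil, Tgfb1 and Smad7, which had lower means themselves. Their direction therefore follows from the selection and is no separate result.

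Tgfb2 shares chromosome 1 with Erbb4, so the 5 measured genes on either side of it in the annotation were read. Lyplal1, a lysophospholipase-like gene and direct neighbour, measured 8.25 ± 0.19 in ErbB4-/- and 7.69 ± 0.30 in control liver, a difference of 0.55 without overlap of the groups (limma, adjusted p = 0.760). The other 9 neighbours had differences between -0.26 and 0.29 and overlapped. Of all genes, 8.33% had groups without overlap in either direction, and a link of these neighbours to Erbb4 was not tested.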

How the data were processed

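Liver RNA of 3 ErbB4-/- and 3 control mice was amplified and biotin-labelled for whole-transcript Affymetrix arrays, as the labels' protocols say. The deposited log2 values, 1 per probe set and array, were made by the authors. The background correction and normalization behind them are not stated in the sources used here. That the logs are to base 2 was inferred from the range of the values. Of 41345 probe sets, 23521 had 1 symbol in the platform annotation, 1814 had several and the rest are unnamed here. The probe set with the highest mean stood for a gene. Differences were fitted on 22180 genes with limma 3.58.1 in R 4.3.3 (lmFit, eBayes, genotype only, two-sided), adjusted by Benjamini-Hochberg at 0.05, and the script was checked on simulated data. With 3 arrays against 3, the smallest permutation p is 0.10. The number of arrays limits the precision. Samples are biological replicates by the design text. Members, lists and tests were chosen with earlier results of these data known. Named genes are the 9 members, up to 4 per pathway list with the smallest p, the 3 most like each of 3 members, and the neighbours of Tgfb2. The collagens, Acta2, Junb, Acvr2b and the genes that mark arrays apart were chosen after their values were seen. Alternatives changed normalization, centring, filter, probe sets, rows, prior, array weights, replicate block, week, arrays and threshold. Figures used matplotlib 3.10.9.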

Additional observations from a re-analysis of the deposited data

How the results depend on the processing

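No alternative moved any of the 9 genes past the threshold, with adjusted p between 0.524 and 1 over 142 results (limma), and the count of called genes stayed 0 for the 9 genes and for the other pathway genes, where 1 to 2 and 5 to 13 had an unadjusted p under 0.05. The count over all genes was 1. It was 0 with every row of the table, the replicate block, the week as a covariate and an adjusted p threshold of 0.01. It was also 0 with each single array left out (lowest and highest both 0) and with control replicate 1 and ErbB4-/- replicate 3 left out together. Over all alternatives, 833 to 2314 had an unadjusted p under 0.05. The lowest count came from the fit on genes at or above the median level and the highest from every row of the table. These ends therefore rest on unlike totals. Of the 142 results 130 kept their sign, including every result for Skil, between -1.48 and -0.59, and for Tgfb1, between -0.41 and -0.03. The values of -1.48 for Skil and -0.03 for Tgfb1 (SE 0.22) came from the fit with the week as a covariate. In that fit the difference of Tgfb1 was smaller than its standard error. With the week as a covariate 7 genes turned sign, Tgfb2 to -0.0205, Tgfb3 to 0.12, Tgfbr1 to -0.20, Tgfbr2 to -0.0219, Smad7 to 0.33, Ski to 0.28 and Thbs1 to 1.16, in a fit whose standard error for Thbs1 was 0.68. With 1 array left out Tgfb2 lay between -0.0325 and 0.0655 and turned sign to -0.00103 without control replicate 1, to -0.0294 without control replicate 2 and to -0.0325 without ErbB4-/- replicate 2, and Tgfb3 lay between -0.12 and 0.0269. Tgfbr1 was -0.0178 without control replicate 1 and ErbB4-/- replicate 3 together. The cause was not tested. Same-numbered mice did not deviate together (correlations of -0.10, 0.03 and -0.05), but with so few mice per group this cannot exclude pairing by number. With the replicate block Skil had a difference of -0.83 (limma, adjusted p = 0.780) and 0 of the 9 genes passed. The counts without control replicate 1, ErbB4-/- replicate 3 or both were added after seeing the data.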
